A study of Mus musculus with 19 samples.

Results

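The comparison was between green fluorescent cells of the mouse sciatic nerve at embryonic day 12 (E12, 3 arrays, replicates 1, 2 and 4), labelled Schwann cell precursors, and green fluorescent cells of the trunk at E9.5 (3 arrays, replicates 1, 2 and 3), labelled neural crest stem cells. These 6 arrays were chosen by their stage labels out of 19, and no measured value was used to choose them. All embryos of both groups carried a green fluorescent protein transgene driven by a glial promoter, which marks stem cells of the neural crest and, later, glial cells. So both groups are sorts by that promoter's activity, not whole tissues, and the controls carry the reporter as well. RNA from sorted cells was amplified by 2 rounds of in vitro transcription and hybridized to Affymetrix mouse arrays. For E9.5 replicates 2 and 3 the labels carry no protocol text of their own. The labels do not say whether replicates derive from different embryos or litters. The p-values therefore measure only the spread between arrays of a stage, which may be technical. That spread was estimated over all 19 arrays, so the later stages enter each SE (standard error) too. The trunk was sampled at one stage and the leg nerve at the other, so stage and body region cannot be told apart.

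Neural crest cells leave the dorsal neural tube, migrate through the trunk and form, among other cells, the glia of peripheral nerves. Those that travel along growing axons become Schwann cell precursors, which depend on signals from the axons for survival and which later give Schwann cells and several other derivatives. Endothelin, Notch and neuregulin signals are known regulators of this lineage, and the nerve at this stage has not yet been wrapped in its connective tissue sheaths.

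The labelled identities were checked against defining genes. Sox10, the transcription factor that marks neural crest and its glia, read 900.5, 1372 and 1870 on the E9.5 arrays and 1888, 2207 and 2695 on the E12 arrays, in units of intensity, the deposited expression index. Every array of both stages was far above the floor of 68.5, the level under which values were not separated, and the change was not called (log2 change 0.76, SE 0.48, adjusted p = 0.36). Of 23 measured genes of Schwann cell precursors and immature Schwann cells, 13 rose and 0 fell, while 2 of them, S100b and Pou3f1, which mark later Schwann cells, lay at the floor on all 6 arrays. Of 24 neural crest genes, 8 fell and 5 rose, and 5 fell without E12 replicate 1, without E9.5 replicate 2 or without E9.5 replicate 3. Over all genes 10.9% rose and 4.19% fell.

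Rank correlations between arrays were 0.963 to 0.973 within E9.5 and 0.964 to 0.983 within E12. The ratio of 3' to 5' GAPDH control signal, a measure of how short the amplified RNA was, lay between 2.33 and 3.41 at E9.5 and between 3.18 and 4.53 at E12, and its part in the results was not tested beyond its use as a covariate. Markers of macrophages and other white cells summed to 3356 to 3707 on the E9.5 arrays and 4627 to 8854 on the E12 arrays, and 7 of 22 rose and 1 fell. Markers of erythroid cells summed to 3425 to 3645 at E9.5 and 4911 to 12810 at E12, and 4 of 12 rose and 0 fell. Of 17 skeletal muscle markers and 12 cartilage and bone markers, 0 were called by limma in either direction. Neural tube markers summed to 5038 to 6604 at E9.5 and 9793 to 10110 at E12, and 3 of 16 fell and 2 rose. Of 10 markers of somite and paraxial mesoderm 2 fell and 0 rose. Melanocyte lineage markers summed to 3911 to 4871 at E9.5 and 9063 to 11520 at E12, and 1 of 9 rose and 1 fell. Endothelium markers summed to 2860 to 3197 at E9.5 and 3750 to 3962 at E12, and 1 of 14 rose and 1 fell. Among 18 neuron markers 2 fell and 3 rose. Over all genes 4.19% fell and 10.9% rose, and the part of such cells in the rises and falls was not tested. In bulk samples of this kind, fewer cells of a type and less RNA per cell cannot be told apart.

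Between the stages, 1469 of 10414 probe sets changed, which is 14.1% of those tested. Of these, 1010 were higher at E12 (9.7%) and 459 were lower (4.41%), by limma with Benjamini-Hochberg adjustment over all probe sets and a threshold of 0.05. A change of at least 2-fold was reached by 692 of the rises (6.64% of probe sets) and 241 of the falls (2.31%). Arrays of each stage that did not overlap at all were more common, at 21.6% of probe sets with E12 higher and 14.5% with E12 lower. With 1 probe set per gene, that of highest mean, 806 of 7414 genes rose (10.9%) and 311 fell (4.19%), and the median change of all genes was 0.03 on the log2 scale. Falls numbered 258 without E12 replicate 1, 298 without E12 replicate 2 and 263 without E9.5 replicate 2, and all changes numbered 973 without E12 replicate 1. A call means an adjusted p under that threshold, and log2 changes are E12 minus E9.5, with their standard error (SE) on the log2 scale. Where an array of the lower stage lay at the floor, the fold is a lower bound and is given as "at least". Folds are differences of mean log2 levels, with values under the floor raised to it, turned back into ratios, so they can lie above or below the ratio of the plain means. The share of calls that were rises, 68.8%, moved with the scaling. It was 55.7% with each array centred on its median (912 higher, 726 lower), 55.0% with quantile normalization (924 and 756), and 80.5% when the GAPDH ratio was a covariate (1472 and 357).

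Production lots 1 and 2 of the arrays each hold 1 array of either stage. As these arrays also entered the calls, values within a lot are a description of size and not a separate check. The median log2 change of the rises was 1.27 in the fit, 1.37 within lot 1 and 1.28 within lot 2, and that of the falls was -1.02, -0.99 and -1.10 (fit, lot 1 and lot 2).

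**Figure D1:**
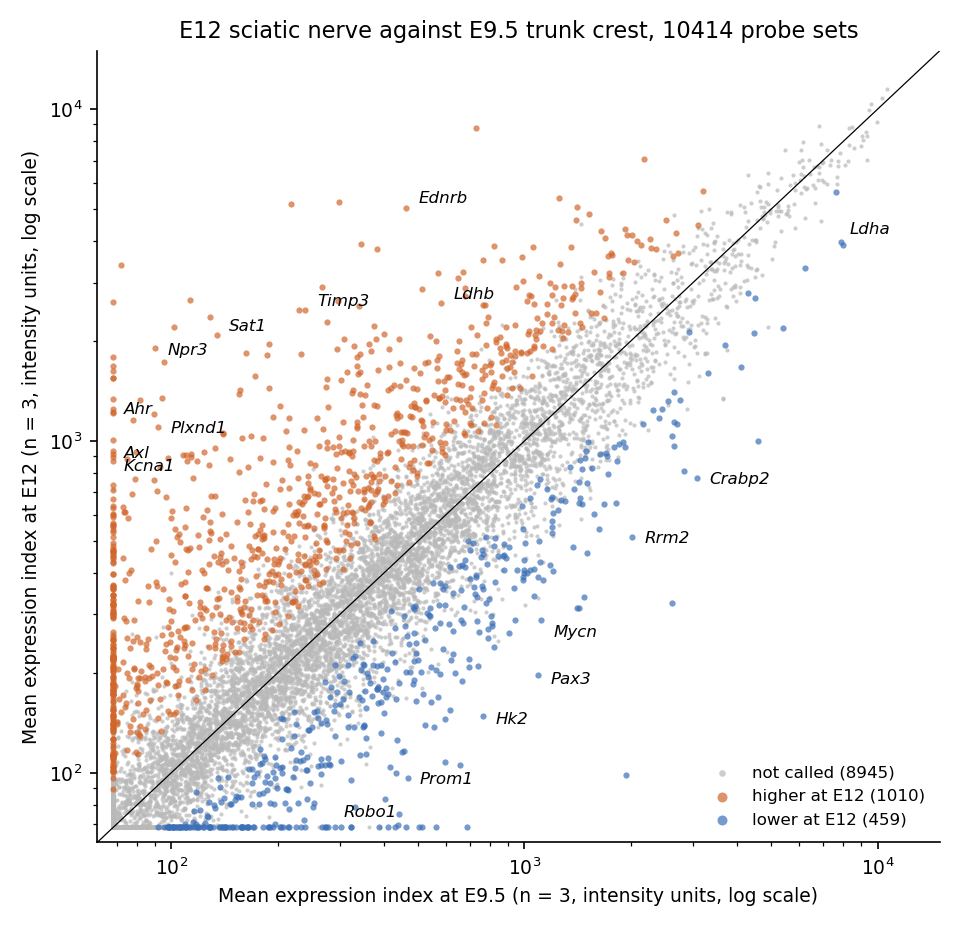
Mean expression index of each of the 10414 probe sets at E9.5 (horizontal axis) and at E12 (vertical axis), in intensity units on log scales, with values under the floor drawn at the floor and the line of equal levels in black. Orange points were higher at E12 (1010), blue points lower (459) and grey points not called. The named genes are described in the text, except Pax3 (5.57-fold lower) and Rrm2 (4.27-fold lower).

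Probe sets that crossed the floor were a small part of the change. At or below the floor on all 3 E9.5 arrays and above 137, which is the floor multiplied by 2, on all 3 E12 arrays were 86 probe sets, 74 of them counted as genes by symbol. The opposite pattern held for 17 probe sets and 15 genes. With the floor at the 40th percentile, 129, the counts were 82 and 17. Of the 86 gained probe sets, 81 were called as rises by limma, and of the 17 lost probe sets all 17 were called as falls. Over all probe sets 9.7% rose and 4.41% fell. The patterns were picked from the same values, with stages that cannot overlap, so these calls are not a separate check. The pattern belongs to a probe set and not always to its gene. Cst3, which encodes cystatin C, is among the gained by one probe set, while its other probe set read 1020, 990 and 1172 at E9.5, and the lost probe sets include one each of Fgfr2 and Ror2, whose other probe sets were not called.

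The gained genes named by the rule had very different roles. Ahr, a transcription factor that binds aromatic ligands, read 29.6, 33.9 and 33.7 at E9.5 and 1416, 1161 and 1098 at E12. All E9.5 arrays lay at the floor and all E12 arrays far above it, a rise of at least 17.8-fold (log2 change 4.15, SE 0.23, adjusted p = 3.1e-09). Scrg1, a gene first described in prion-infected brain, read 0 on every E9.5 array and 967, 904 and 816 at E12. The log2 change was at least 3.71 (SE 0.13, adjusted p = 2e-11). Kcna1, a voltage-gated potassium channel subunit, read 0 on every E9.5 array and 581, 993 and 1044 at E12. Kcna1 rose at least 12.3-fold (SE 0.38, adjusted p = 6.3e-06). Among 72 ion channel genes it was 1 of 3 that rose (4.17%), with 0 that fell, against 10.9% and 4.19% of all genes. Apoe, a lipid carrier made by glia and macrophages, read 0 on every E9.5 array and 2200, 1072 and 751 at E12 (at least 17.7-fold, SE 0.44, adjusted p = 7.9e-06). Its E12 arrays stood in the same order as those of Ctss, a lysosomal protease that is abundant in macrophages (1719, 850 and 222). Ahr and Scrg1 had this order too, and an order of 3 arrays does not assign a gene to a cell type. The part of macrophages was not tested.

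Among the lost genes were guidance and signalling components. Robo1, a receptor for the repellent Slit proteins, read 331, 473 and 168 at E9.5 and 19.6, 39.0 and 52.2 at E12. All E12 arrays lay at the floor, a fall of at least 4.33-fold (log2 change -2.12, SE 0.24, adjusted p = 1.2e-05). Wnt3a, a ligand made in the dorsal neural tube, read 197, 175 and 137 at E9.5 and 22.6, 22.8 and 24.1 at E12. That fall was at least 2.45-fold (SE 0.12, adjusted p = 1.9e-06). Prom1, a membrane protein of neural and other progenitors, was lower on both of its probe sets, at least 4.75-fold on one (SE 0.17, adjusted p = 1.2e-07) and at least 6.61-fold on the other (SE 0.14, adjusted p = 1.7e-09). Sall4, a zinc finger factor of early progenitors, read 215, 222 and 172 at E9.5 and 47.1, 54.7 and 55.6 at E12, at least 2.95-fold lower (SE 0.14, adjusted p = 7.9e-07).

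**Figure D2:**
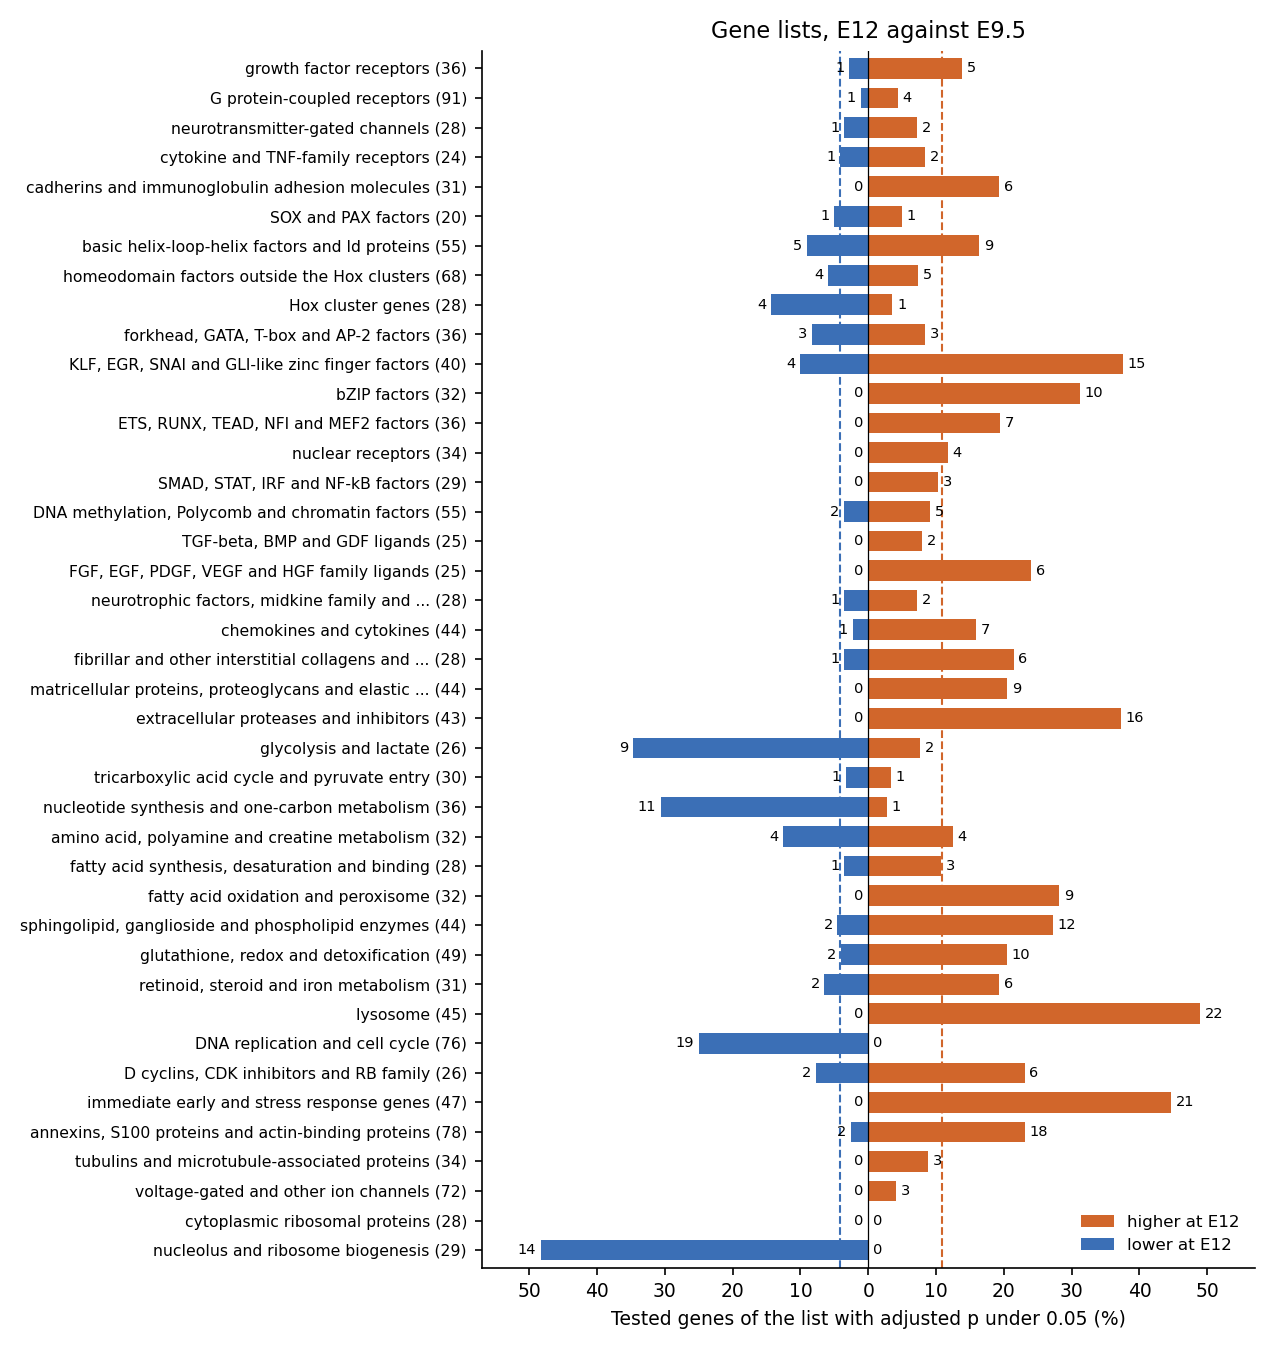
Share of the measured genes of each list that rose (orange, to the right) or fell (blue, to the left) between E9.5 and E12, in percent, with the number of genes beside each bar and the number tested in brackets. Dashed lines mark the shares over all 7414 genes, 10.9% up and 4.19% down, and only lists with 20 or more tested genes are drawn.

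Receptors as a class did not stand out in number. Of 295 measured receptor genes 29 rose and 9 fell (9.83% and 3.05%), against 10.9% and 4.19% of all genes, and their median change was 0. Within this class the changes were large for single receptors of growth factors, endothelin, vasopressin and ATP, while most members of each family were not called. Of 36 growth factor receptors 5 rose and 1 fell, and 3 rose without E12 replicate 2 or 4 or without E9.5 replicate 1 or 3. Of 91 G protein-coupled receptors 4 rose and 1 fell, and 2 rose without E12 replicate 1 or without E9.5 replicate 2.

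Axl, a receptor tyrosine kinase for the ligands Gas6 and protein S, read 53.0, 75.3 and 61.6 at E9.5 and 1066, 937 and 734 at E12. Axl rose at least 12.8-fold (log2 change 3.67, SE 0.23, adjusted p = 1.1e-08). Pros1, which encodes protein S, rose as well, from 140.2, 189 and 147 to 852, 1074 and 1135 (6.43-fold, SE 0.48, adjusted p = 0.00099). Thus a receptor and a ligand of the same pair were both higher on all 3 E12 arrays.

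Ednrb, the endothelin receptor of the neural crest lineage, read 376, 324 and 682 at E9.5 and 4384, 4688 and 6084 at E12. The rise was 11.5-fold (log2 change 3.52, SE 0.40, adjusted p = 1.2e-05). Avpr1a, a vasopressin receptor, read 125, 119 and 124 at E9.5 and 632, 532 and 603 at E12. It rose 4.79-fold (SE 0.32, adjusted p = 0.00012), and its E9.5 arrays had an SD of only 3.14. P2rx4, an ion channel opened by ATP, read 68.8, 76.4 and 74.1 at E9.5 and 643, 702 and 549 at E12, 8.60-fold higher (SE 0.21, adjusted p = 2.8e-08). Npr3, a clearance receptor for natriuretic peptides, read 71.6, 86.4 and 112 at E9.5 and 2001, 1820 and 1886 at E12. Its rise of 21.5-fold (SE 0.66, adjusted p = 0.00019) was among the 10 largest of all probe sets with 1 symbol.

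Notch1, the receptor whose signal keeps progenitors undifferentiated, read 902, 958 and 987 at E9.5 and 2821, 2690 and 3212 at E12. It rose 3.06-fold (SE 0.28, adjusted p = 0.00087), with no overlap. The other measured receptors of the family had log2 changes of -0.09 (Notch2, adjusted p = 0.95), 0.34 (Notch3, 0.41) and -0.31 (Notch4, 0.64), and their arrays overlapped between the stages. Dll1, a Notch ligand, was lower at E12, at 264, 312 and 319.7 against 463, 602 and 539. This fall of 1.79-fold (adjusted p = 0.012) was not called without E12 replicate 1 (0.062) or without E9.5 replicate 2 (0.06), and over all alternatives it ran from 0.00043 to 0.062. Among the 15 measured Notch receptors, ligands and targets, 1 rose and 1 fell (6.67% each), against 10.9% and 4.19% of all genes.

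Of 24 receptors of cytokines and the tumour necrosis factor family, 2 rose and 1 fell (8.33% and 4.17%), against 10.9% and 4.19% of all genes. Il10rb, a shared subunit of several interleukin receptors, rose 3.53-fold from 276 ± 31.4 to 990 ± 238 (SE 0.27, adjusted p = 0.00018). Il6st, the signal subunit shared by receptors of the interleukin 6 family, rose 3.19-fold from 194 ± 26.6 to 616 ± 74.0 (SE 0.26, adjusted p = 0.00027). Tnfrsf19, a receptor of the tumour necrosis factor family, went the other way, from 250, 362 and 292 to 52.4, 85.9 and 37.2. This was a fall of at least 4.04-fold (SE 0.13, adjusted p = 2.5e-08).

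Guidance receptors moved in both directions. Plxnd1, a receptor for class 3 semaphorins, read 60.8, 71.6 and 142 at E9.5 and 1026, 1171 and 1107 at E12 (at least 12.4-fold higher, SE 0.39, adjusted p = 7.2e-06). Beside the loss of Robo1, Unc5c, a receptor for netrin, fell at least 2.74-fold from 163, 217 and 210.5 to 65.6, 67.1 and 76.9 (SE 0.28, adjusted p = 0.0016). Of 10 measured genes of this list 2 rose and 2 fell (20% each), against 10.9% and 4.19% of all genes. Nrp1, a co-receptor for semaphorins and vascular growth factor, was higher at E12 (2.15-fold, adjusted p = 0.014), but not without E12 replicate 4 (0.057), without E9.5 replicate 1 (0.083) or in a fit of the 6 arrays alone (0.059), with a range of 0.00029 to 0.083.

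Of 17 integrins 4 rose and 1 fell (23.5% and 5.88%), and of 31 cadherins and immunoglobulin adhesion molecules 6 rose and 0 fell (19.4% up), against 10.9% and 4.19% of all genes. Itga4, a fibronectin and VCAM receptor subunit, read 65.1, 97.5 and 58.0 at E9.5 and 582, 578 and 679 at E12 (at least 7.93-fold, SE 0.21, adjusted p = 4.5e-08). Itgav, the vitronectin receptor subunit, read 575, 674 and 462 at E9.5 and 2943, 3301 and 3374 at E12 (5.68-fold, SE 0.19, adjusted p = 8.8e-08). Both subunits were higher on every E12 array. Itga6, a laminin receptor subunit, rose 2.91-fold (SE 0.35, adjusted p = 0.0057). Alcam, a cell adhesion molecule of the immunoglobulin family, read 6.42, 54.8 and 3.84 at E9.5 and 485, 590 and 1066 at E12 (at least 9.83-fold, SE 0.57, adjusted p = 0.00077). Cntn1, a partner of neurofascin at axon and glia contacts, rose 4.19-fold (SE 0.35, adjusted p = 0.00065).

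Receptors of the neuregulin and stem cell factor families changed with less support. Erbb3, the neuregulin receptor that Schwann cell precursors need, read 1589, 2052 and 1677 at E9.5 and 3066, 3768 and 4056 at E12. The arrays did not overlap, yet the rise of 2.05-fold (adjusted p = 0.023) was not called without E12 replicate 2 (0.076), E12 replicate 4 (0.077), E9.5 replicate 1 (0.083) or E9.5 replicate 3 (0.068), with a range of 0.00056 to 0.083. Erbb4 and Egfr had log2 changes of 0.31 and -0.15 and were not called (adjusted p = 0.59 and 0.74). Kit, the receptor for stem cell factor, read 174, 231 and 192 at E9.5 and 68.1, 115 and 86.7 at E12. The call of its fall of at least 2.24-fold (adjusted p = 0.034) was lost without E12 replicate 1 or 4 or any 1 of the E9.5 arrays (0.06 to 0.15) and with the GAPDH ratio as a covariate (0.14), the floor at the 40th percentile (0.21) or no filter (0.062), and its adjusted p was 0.0046 to 0.21 over all its alternatives. Kitl, the ligand, rose 3.19-fold from 677, 923 and 524 to 2375, 2227 and 2003 (SE 0.24, adjusted p = 0.00013).

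For Fgfr2, a receptor of fibroblast growth factors, the probe sets of the gene differed. One read 646, 893 and 517 at E9.5 and 20.4, 23.3 and 12.3 at E12, a fall of at least 9.75-fold to the floor (SE 0.15, adjusted p = 2.6e-10). The other, of higher mean level, read 659, 968 and 717 at E9.5 and 758, 790 and 702 at E12, with a log2 change of -0.04 (adjusted p = 0.95). Which transcripts each of them detects was not tested. Fgfr1 and Fgfr3 had log2 changes of -0.63 and -0.09 and were not called (adjusted p = 0.33 and 0.85).

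**Figure D3:**
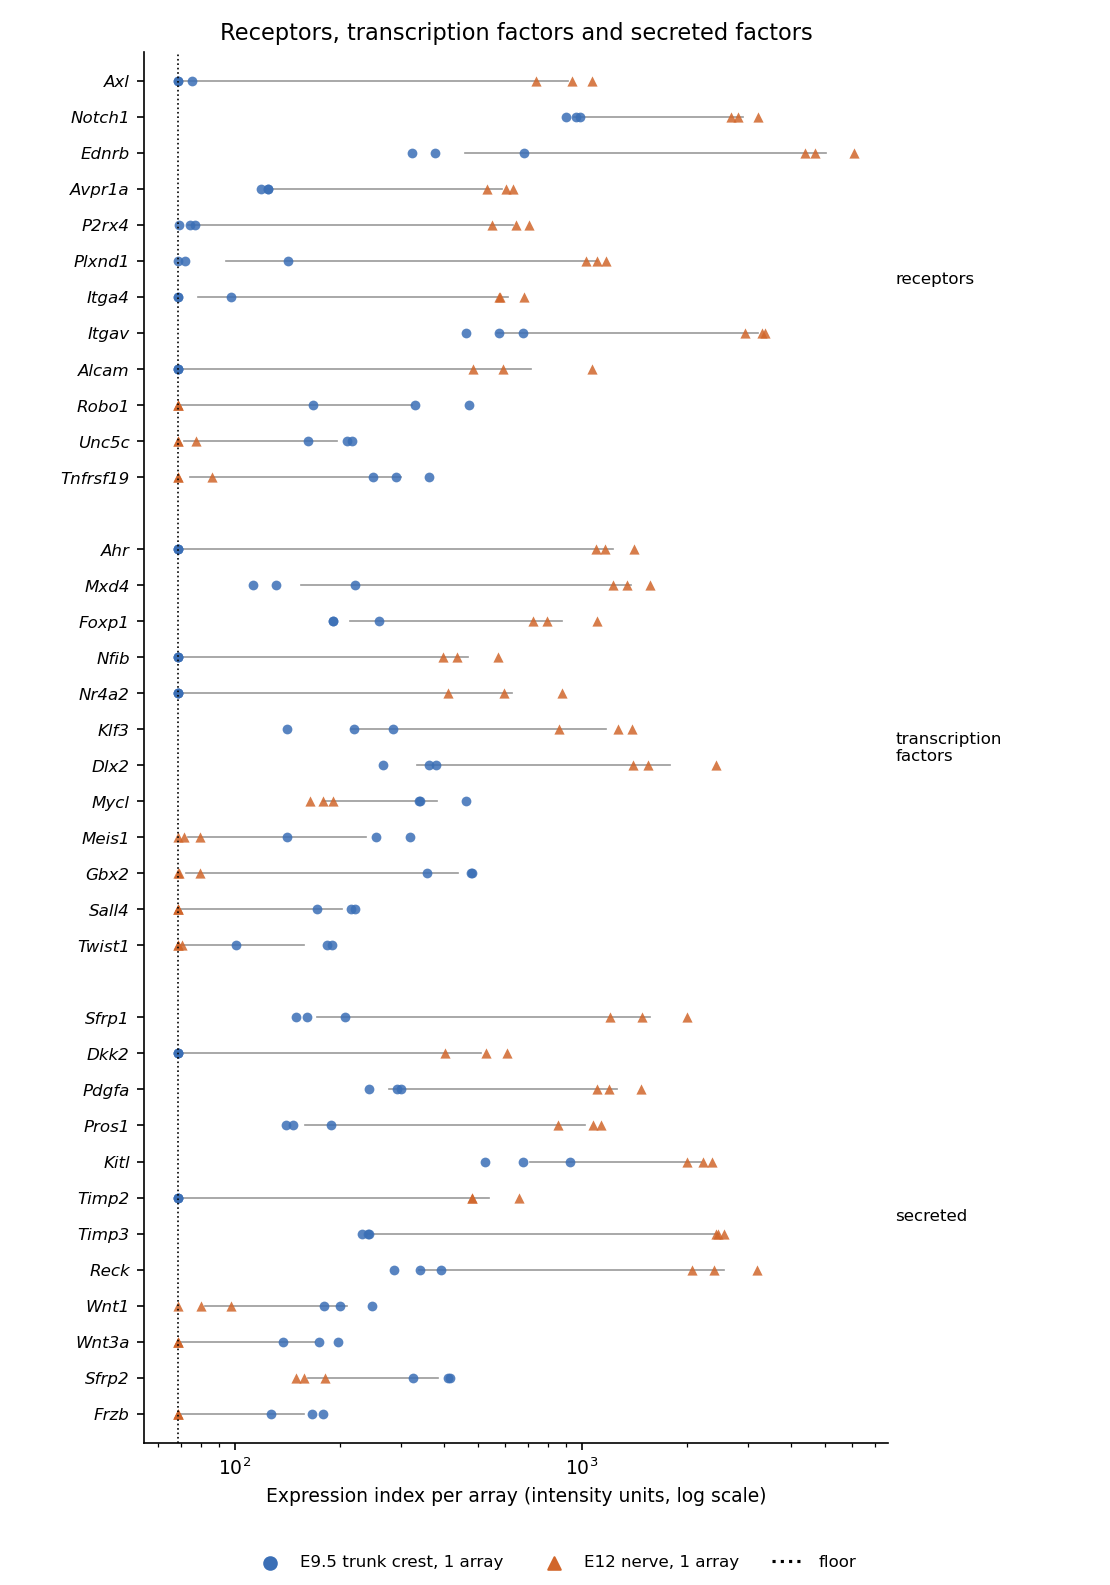
Expression index per array, in intensity units on a log scale, of 12 receptors, 12 transcription factors and 12 secreted factors (the membrane-anchored Reck among them), with E9.5 arrays as blue circles, E12 arrays as orange triangles and a grey line between the stage means. The dotted line is the floor of 68.5, where lower values are drawn, and in every gene shown the arrays of both stages lie apart.

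Transcription factors as a class were near the background. Of 431 measured, 62 rose and 23 fell (14.4% and 5.34%), against 10.9% and 4.19% of all genes. Of the 62 rises, many lay in the zinc finger list of KLF, EGR, SNAI and GLI-like factors, with 15 of 40 up and 4 down, and in the bZIP list, with 10 of 32 up and 0 down. When 1 array was left out, 10 to 14 zinc finger genes and 8 to 13 bZIP genes rose. These lists hold many immediate early genes, which are described further on.

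Kruppel-like factors were higher at E12 in 7 of the 9 members compared as a family, and none fell. Klf3, a repressor, read 141, 221 and 284 at E9.5 and 1390, 1265 and 860.0 at E12, 5.55-fold higher (SE 0.34, adjusted p = 7.9e-05). Klf6 rose 4.42-fold (SE 0.36, adjusted p = 0.00053), Klf9 4.31-fold (SE 0.34, adjusted p = 0.00044) and Klf7 4.00-fold (SE 0.29, adjusted p = 0.00013). Among these, the E12 arrays of Klf6 were the widest apart, at 2468, 957 and 1355. Klf5 rose 3.64-fold (adjusted p = 0.015), but not without E12 replicate 1 (0.052), E12 replicate 2 (0.082) or E9.5 replicate 2 (0.082), with a range of 0.00034 to 0.082. Klf10 rose at least 4.04-fold (adjusted p = 0.0056), but not with the floor at the 40th percentile (0.096) or in a fit of the 6 arrays alone (0.065), with a range of 0.00011 to 0.096. Klf2 read 0 on every E9.5 array and 1555, 214 and 383 at E12, but its arrays spread too far for a call (log2 change 2.88, SE 1.05, adjusted p = 0.085). Klf13 had a log2 change of 0.69 (adjusted p = 0.057), and Klf1, a factor of red cells outside that family list, one of -0.10 (adjusted p = 0.73).

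Factors of the MYC network moved against each other. Mycn, which drives growth of progenitors, read 908, 1232 and 1201 at E9.5 and 236, 228 and 401 at E12 (3.96-fold lower, SE 0.53, adjusted p = 0.019). That call was lost without E12 replicate 1 (0.074), E12 replicate 2 (0.075), E9.5 replicate 2 (0.069) or E9.5 replicate 3 (0.059). It was also lost with the floor at the 10th percentile (0.072), and the adjusted p ranged from 0.0006 to 0.075. Mycl fell 2.12-fold from 463, 341 and 339.8 to 192, 179 and 165 (SE 0.23, adjusted p = 0.0043). Mxd4, a partner of MAX that opposes MYC, read 113, 131 and 222 at E9.5 and 1226, 1574 and 1348 at E12. It rose 9.26-fold (SE 0.38, adjusted p = 2.2e-05), and Mxi1, of the same kind, 3.21-fold from 138 ± 17.5 to 448 ± 106 (SE 0.36, adjusted p = 0.0044). Myc itself read 53.6, 110.2 and 115 at E9.5 and 193, 58.3 and 75.6 at E12, with overlap and a log2 change of 0.07 (adjusted p = 1).

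Single helix-loop-helix factors, their inhibitors and a homeodomain factor also changed. Id4, an inhibitor of helix-loop-helix factors, read 139.5, 96.7 and 109 at E9.5 and 1290, 617 and 419 at E12 (6.10-fold, SE 0.37, adjusted p = 0.00011). Id3 rose 2.50-fold (SE 0.20, adjusted p = 0.00026). Dlx2, a homeodomain factor, rose 5.25-fold from 361, 378 and 267 to 1404, 1545 and 2434 (SE 0.40, adjusted p = 0.00052). On the losing side, Twist1, a factor of mesenchyme and migrating crest, fell at least 2.20-fold from 184, 190.5 and 101 to 70.3, 49.2 and 26.0 (SE 0.18, adjusted p = 0.00027). Neurog2, which drives sensory neuron formation in the crest, fell at least 2.03-fold (SE 0.16, adjusted p = 0.0003), from 143 ± 41.1 to the floor on all 3 arrays. In the whole list of helix-loop-helix factors and Id proteins 9 of 55 rose and 5 fell (16.4% and 9.09%). The shares of all genes were 10.9% and 4.19%. In this list 5 rose without E12 replicate 1, without E9.5 replicate 1 or without E9.5 replicate 2.

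Of 28 measured Hox genes, which give cells their position along the body, 4 fell and 1 rose (14.3% and 3.57%), while 3 rose without E12 replicate 1, and body region differed between the groups as said above. Of 68 homeodomain factors outside the Hox clusters 4 fell and 5 rose (5.88% and 7.35%). Of all genes 4.19% fell and 10.9% rose. Meis1, a cofactor of Hox proteins, read 254, 319 and 141 at E9.5 and 71.2, 66.3 and 79.4 at E12 (at least 3.09-fold, SE 0.21, adjusted p = 5.3e-05). Hoxb5 fell 2.28-fold (SE 0.21, adjusted p = 0.00094) and Hoxb1 2.05-fold (SE 0.20, adjusted p = 0.0022), while Hoxd8 rose 2.54-fold from 124 ± 10.1 to 314 ± 2.26 (SE 0.25, adjusted p = 0.0013). Tfap2c, an AP-2 factor of early ectoderm and crest, fell 2.45-fold from 431, 409 and 335 to 146, 215 and 128 (SE 0.22, adjusted p = 0.00058). Its relative Tfap2a had a log2 change of 0.40 and was not called (adjusted p = 0.24). Insm1, a zinc finger factor of newborn neurons, fell at least 2.34-fold (SE 0.18, adjusted p = 0.00014), and Sall3 fell 2.05-fold (SE 0.16, adjusted p = 0.0003).

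Other transcription factors rose, of several families. Foxp1, a forkhead repressor, rose 4.05-fold from 192, 260 and 191 to 722, 1107 and 792 (SE 0.23, adjusted p = 1.2e-05). Foxo3, a forkhead factor restrained by growth factor signals, rose 3.02-fold (SE 0.36, adjusted p = 0.0058). Nfib, a nuclear factor I protein of glial development, read 7.44, 6.96 and 0 at E9.5 and 574, 397 and 437 at E12 (at least 6.77-fold, SE 0.30, adjusted p = 1e-05). The 3 other measured members, Nfia, Nfic and Nfix, had log2 changes of -0.10, 0.01 and 0.56 and were not called. Nr4a2, an orphan nuclear receptor, rose at least 8.75-fold from the floor to 412, 596 and 877 (SE 0.48, adjusted p = 0.00027). Nfe2l2, the regulator of the antioxidant response, rose 4.86-fold (SE 0.37, adjusted p = 0.00044), and Crem, a factor of cyclic AMP signals, 4.45-fold (SE 0.27, adjusted p = 3.2e-05). Zeb1, a repressor of epithelial genes, rose 2.53-fold (SE 0.27, adjusted p = 0.0024). Of the chromatin genes, Kat2b, a histone acetyltransferase, rose 5.29-fold from 76.2, 93.1 and 93.5 to 571, 345 and 498 (SE 0.27, adjusted p = 1.2e-05), and Mbd2, a reader of methylated DNA, at least 3.00-fold (SE 0.28, adjusted p = 0.0008). The chromatin list as a whole had 5 of 55 genes up and 2 down (9.09% and 3.64%), against 10.9% and 4.19% of all genes.

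Secreted factors had a larger share of rises and a smaller share of falls than all genes, a difference that was not tested. Of 312 genes 61 rose and 8 fell (19.6% and 2.56%), against 10.9% and 4.19% of all genes. Proteases and their inhibitors led in number, with 16 of 43 up and 0 down, and 12 to 14 up when 1 array was left out. Their median log2 change was 0.40, or 0.39 within lot 1 and 0.35 within lot 2, against 0.03 for all genes.

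Single Wnt ligands and secreted modulators of Wnt signals changed. Wnt1, like Wnt3a a ligand of the dorsal neural tube, fell at least 2.57-fold from 200, 249 and 181 to 79.9, 97.4 and 66.2 (SE 0.18, adjusted p = 5.6e-05). Sfrp1, a secreted Wnt binder, read 149.6, 207 and 161 at E9.5 and 1206, 1488 and 2002 at E12, a rise of 8.96-fold (SE 0.36, adjusted p = 1.5e-05). Dkk2, a secreted modulator of the Wnt co-receptor, read 37.8, 33.6 and 44.6 at E9.5 and 529.5, 402 and 606 at E12 (at least 7.37-fold, SE 0.14, adjusted p = 6.6e-10). Sfrp2 and Frzb, relatives of Sfrp1, moved the other way. Sfrp2 fell 2.35-fold from 325, 415 and 412 to 149.7, 158 and 181 (SE 0.28, adjusted p = 0.0061), and Frzb fell by at least 2.28-fold (158 ± 27.2 at E9.5, every E12 array at floor level, SE 0.12, adjusted p = 4.6e-06). Of 13 measured Wnt ligands 1 rose and 2 fell (7.69% and 15.4%), and of 10 receptors and co-receptors 1 rose and 0 fell (10% up). The shares of all genes were 10.9% and 4.19%.

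Among ligands, most members of each list were not called. Of 25 ligands of the FGF, EGF, PDGF, VEGF and HGF families 6 rose and 0 fell, against 10.9% and 4.19% of all genes. When 1 array was left out, 5 to 6 of them rose. Of 28 neurotrophic factors, midkine family members and neuropeptides 2 rose and 1 fell, of 25 TGF-beta, BMP and GDF ligands 2 rose and 0 fell, of 44 chemokines and cytokines 7 rose and 1 fell, and of 11 insulin-like growth factors and their binding proteins 0 were called by limma in either direction. Pdgfa, a ligand for mesenchymal cells, read 243, 300.4 and 292 at E9.5 and 1196, 1483 and 1106 at E12 (4.51-fold, SE 0.17, adjusted p = 1.5e-07). Hbegf, a ligand of EGF receptors, rose 4.79-fold from 112, 128 and 88.8 to 809, 502 and 342 (SE 0.35, adjusted p = 0.00027). Dhh, desert hedgehog, the glial signal that organizes the nerve sheath, read 322, 301 and 334 at E9.5 and 832, 748 and 854 at E12. It rose 2.54-fold (SE 0.20, adjusted p = 0.00018), while Ptch1, the hedgehog receptor and target, had a log2 change of -0.17 (adjusted p = 0.76). Bdnf, a neurotrophin, rose 2.61-fold from 181, 176 and 171 to 534, 564 and 321 (SE 0.31, adjusted p = 0.0058). Cxcl12, a chemokine that guides migrating cells, rose at least 6.88-fold from 120.0, 43.5 and 63.0 to 697, 673 and 391 (SE 0.45, adjusted p = 0.00045). Igf2, the fetal growth factor, read 1327, 1393 and 1624 at E9.5 and 4664, 4872 and 3945 at E12 without overlap, but was not called (log2 change 1.63, SE 0.74, adjusted p = 0.17). Its SE draws on the arrays of all stages and not on these values alone. The relative of the lost factor Ptn, Mdk (midkine), was not called either, with a log2 change of -0.40 (adjusted p = 0.51).

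Inhibitors of metalloproteases showed some of the steadiest rises. Timp3 read 242, 243 and 231 at E9.5 and 2469, 2433 and 2557 at E12. The SD was 6.50 and 63.8 around means of 239 and 2486, and the rise was 10.4-fold (log2 change 3.38, SE 0.21, adjusted p = 1e-08). Timp2 read 0 on every E9.5 array and 481, 481 and 658 at E12, at least 7.79-fold higher (SE 0.21, adjusted p = 4.5e-08). Timp1 had a log2 change of 0.23 and was not called (adjusted p = 0.38). Reck, a membrane-anchored inhibitor of the same enzymes, rose 7.46-fold from 342, 391 and 287 to 2405, 2080 and 3186 (SE 0.26, adjusted p = 7.6e-07). A protease that these inhibitors act on rose as well: Mmp14, a membrane-bound collagenase, was 3.58-fold higher, from 509, 514 and 666 to 1804, 1931 and 2287 (SE 0.24, adjusted p = 5.9e-05). Adam19, a shedding protease that cleaves neuregulin, rose 4.16-fold from 90.5 ± 13.3 to 376 ± 50.3 (SE 0.28, adjusted p = 9.7e-05).

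Of 19 laminins, nidogens and basement membrane collagens 7 rose and 1 fell (36.8% and 5.26%), against 10.9% and 4.19% of all genes. Col5a2, a fibrillar collagen, rose 5.40-fold from 317, 393 and 377 to 1737, 1989 and 2140 (SE 0.15, adjusted p = 1e-08). Col18a1, a collagen of basement membranes, rose 3.69-fold from 1054 ± 193 to 3850 ± 391 (SE 0.20, adjusted p = 6.7e-06). Matn2, an adaptor protein of the matrix, read 40.1, 77.2 and 82.8 at E9.5 and 1492, 562 and 1580 at E12 (at least 14.5-fold, SE 0.32, adjusted p = 4.3e-07). Replicate 2 was the low one of its E12 arrays. Tnc, tenascin C, rose from the floor to 310.0, 373 and 229 (at least 4.35-fold, SE 0.32, adjusted p = 0.00019), and Vcan, versican, 3.63-fold from 1080, 1644 and 1497 to 4907, 4441 and 5852 (SE 0.36, adjusted p = 0.0019). Dag1, dystroglycan, a laminin receptor on glia, rose 2.58-fold (SE 0.28, adjusted p = 0.0028). Of 44 matricellular and related genes 9 rose and 0 fell. Many of these genes are also made by fibroblasts, whose 18 measured markers summed to 3286 to 4244 at E9.5 and 9092 to 11000 at E12. Of those 18 markers 4 rose and 1 fell, and 2, Ogn and Mfap5, lay at the floor on all 6 arrays. The rises were Col3a1 (21.7-fold, from 101.5 ± 12.1 to 2207 ± 260.2, SE 0.17, adjusted p = 3.2e-11), Col1a2 (5.20-fold, SE 0.27, adjusted p = 1.2e-05), Fbln2 (5.11-fold, SE 0.38, adjusted p = 0.00041) and Col6a1 (2.55-fold, SE 0.28, adjusted p = 0.0034), all of them matrix proteins, and the fall was that of the glucose carrier Slc2a1. Markers of pericytes and smooth muscle summed to 2847 to 3134 at E9.5 and 6433 to 7001 at E12. Of these 12 markers, Myl9 and Mcam rose and 0 fell, and Acta2 and Abcc9 lay at the floor on all 6 arrays. The part of such cells was not tested.

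Metabolic genes had larger shares of both rises and falls than all genes, a difference that was not tested. Of 431 measured, 77 rose and 39 fell (17.9% and 9.05%), against 10.9% and 4.19% of all genes. Falls were the more frequent call in glycolysis and nucleotide synthesis, and rises in fatty acid oxidation, sphingolipid and lysosomal genes.

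In glycolysis 9 of 26 genes fell and 2 rose (34.6% and 7.69%), against 4.19% and 10.9% of all genes. The falls numbered 7 to 10 when 1 array was left out. The median log2 change was -0.39, or -0.34 within lot 1 and -0.35 within lot 2. Slc2a1, the glucose transporter GLUT1, fell 2.34-fold from 378, 520.5 and 423 to 200.3, 194 and 167 (SE 0.23, adjusted p = 0.0012). Of the enzymes below it, Tpi1 fell 2.35-fold (SE 0.24, adjusted p = 0.0021) and Pgk1, phosphoglycerate kinase, 2.47-fold from 5276, 5667 and 5239 to 1880, 2278 and 2421 (SE 0.27, adjusted p = 0.0028). Pgam1 fell 1.91-fold (adjusted p = 0.012), but not in a call without E12 replicate 1 (0.053) or with the GAPDH covariate (0.056), with a range of 0.00011 to 0.056. Pdk1, the kinase that keeps pyruvate out of the mitochondrion, fell 2.10-fold (SE 0.22, adjusted p = 0.0033).

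The isoforms of some steps moved apart. Ldha, the lactate dehydrogenase subunit of fermenting cells, read 7890, 7717 and 8006 at E9.5 and 3264, 4208 and 4461 at E12. It fell 2.00-fold (SE 0.17, adjusted p = 0.00074), whereas Ldhb, the subunit of oxidative tissues, rose from 776, 422 and 542 to 2143, 2903 and 2780 (log2 change 2.20, SE 0.27, adjusted p = 3e-05). Slc16a7, a carrier of lactate and pyruvate, rose with Ldhb, at least 3.66-fold from the floor to 233, 202 and 335 (SE 0.26, adjusted p = 0.00011). Hk2 fell from 782, 907 and 606 to 162, 199 and 85.8, while Hk1, the other hexokinase measured, had a log2 change of 0.49 (adjusted p = 0.65). Pfkl fell from 1407 ± 524 to 314 ± 217 (adjusted p = 0.0055, range 1.4e-05 to 0.055 and highest in a fit of the 6 arrays alone), and Pfkm and Pfkp had log2 changes of -0.20 and -0.33 and were not called (adjusted p = 0.65 and 0.22). Aldoa had a log2 change of -0.36 (adjusted p = 0.14).

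Promoter sequence was set beside these values because glycolytic genes are textbook targets of the hypoxia-inducible factor, whose response element has the core ACGTG. RefSeq promoters of GRCm38.p6 were matched by symbol for 5929 of 7414 genes, and ACGTG was searched on both strands in the 250 bases before the start. It was found in 24.7% of all promoters, in 10 of 23 of the glycolysis list (43.5%), in 6 of 9 of its members that fell (66.7%) and in 4 of 14 of the others (28.6%). A match is a description of the letters and does not show binding. The 80 bases around the match are printed for the pair of such genes that fell most among those called without any 1 array, at chr6:82774467-82774546 on the minus strand for Hk2 and chrX:106186929-106187008 on the plus strand for Pgk1. Capitals mark ACGTG or its reverse complement CACGT, 5' to 3' on the strand of the gene.
Hk2: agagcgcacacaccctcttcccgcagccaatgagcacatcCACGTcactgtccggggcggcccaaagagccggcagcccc
Pgk1: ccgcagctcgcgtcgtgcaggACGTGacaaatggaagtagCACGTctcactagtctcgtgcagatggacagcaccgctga
In Hk2 the match begins 52 bases before the start, and in Pgk1 the nearer of the 2 matches shown begins 131 bases before it.

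Other genes known to respond to low oxygen were on a separate list, and the part of oxygen in these changes was not tested. Of its 18 measured genes 3 rose and 2 fell (16.7% and 11.1%), against 10.9% and 4.19% of all genes. Ddit4, an inhibitor of the growth kinase mTOR, rose 5.54-fold from 565, 517 and 458 to 2418, 3472 and 2713 (SE 0.31, adjusted p = 3.2e-05), and Kdm3a, a histone demethylase, 2.67-fold (SE 0.26, adjusted p = 0.0014). Bnip3, a mitophagy receptor, fell at least 1.96-fold from 136 ± 26.8 to 59.9 ± 7.51 (SD, n = 3 and 3, SE 0.16, adjusted p = 0.00054).

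Among enzymes that build nucleotides, falls were the more frequent call. Of 36 genes of nucleotide synthesis and one-carbon metabolism 11 fell and 1 rose (30.6% and 2.78%), against 4.19% and 10.9% of all genes. The count of falls was 7 without E12 replicate 1, without E12 replicate 2 or without E9.5 replicate 3, 6 with the GAPDH covariate and 19 with array weights, and 29 of the 36 had a fitted change below 0. Prps1, which makes the ribose donor of nucleotides, read 1187, 1318 and 1103 at E9.5 and 445, 401 and 373 at E12 (2.96-fold lower, SE 0.27, adjusted p = 0.00073). Shmt1, a serine hydroxymethyltransferase, fell 3.33-fold from 439, 534 and 659 to 136, 198 and 154 (SE 0.21, adjusted p = 2.2e-05). Umps, of pyrimidine synthesis, fell 2.28-fold (SE 0.23, adjusted p = 0.0022), and Gart, of purine synthesis, 2.03-fold (SE 0.23, adjusted p = 0.006). Bcat1, which breaks down branched-chain amino acids, fell 2.57-fold from 959, 1116 and 1041 to 314, 462 and 451 (SE 0.21, adjusted p = 0.00031).

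Polyamine and creatine metabolism included single large rises. Sat1, the enzyme that acetylates polyamines for export, read 125, 134 and 144 at E9.5 and 2426, 1944 and 1882 at E12. Sat1 rose 15.4-fold (log2 change 3.95, SE 0.23, adjusted p = 7.7e-09). Slc6a8, the creatine transporter, rose 3.58-fold from 151, 248 and 211 to 624, 841 and 691 (SE 0.33, adjusted p = 0.00088). Ckb, brain-type creatine kinase, rose 2.99-fold from 742, 713 and 912 to 2055, 2367 and 2647 (SE 0.30, adjusted p = 0.0016). In the whole list of amino acid, polyamine and creatine metabolism 4 of 32 rose and 4 fell (12.5% each). The shares of all genes were 10.9% and 4.19%.

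Of 32 genes of fatty acid oxidation and the peroxisome 9 rose and 0 fell (28.1% up), against 10.9% and 4.19% of all genes. When 1 array was left out, 6 to 8 rose. The median log2 change was 0.58, or 0.66 within lot 1 and 0.36 within lot 2. Cpt1a, the gate of fatty acids into the mitochondrion, read 56.3, 42.9 and 51.2 at E9.5 and 311, 304 and 413 at E12 (at least 4.95-fold, SE 0.32, adjusted p = 0.00011). Eci2, an enoyl-CoA isomerase, rose 4.00-fold from 257, 338 and 468 to 1327, 1447 and 1353 (SE 0.35, adjusted p = 0.00079). Phyh, of peroxisomal alpha oxidation, rose 3.80-fold from 86.3 ± 10.3 to 327 ± 29.8 (SE 0.37, adjusted p = 0.0016). By contrast, cholesterol synthesis had 1 of 17 genes up and 0 down, and the tricarboxylic acid cycle 1 of 30 up and 1 down.

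Retinoid genes divided by role. Crabp1 and Crabp2, which bind retinoic acid in the cell, both fell. Crabp1 went from 3079, 2755 and 2673 to 838, 950 and 642 (3.54-fold, SE 0.31, adjusted p = 0.00056), and Crabp2 from 2904, 3530 and 2822 to 653, 705 and 967 (4.02-fold, SE 0.15, adjusted p = 8.1e-08). Enzymes that make retinoic acid rose from low levels, Aldh1a3 at least 2.39-fold from the floor to 149, 178 and 165 (SE 0.10, adjusted p = 3e-07) and Aldh1a2 at least 2.87-fold to 296, 240 and 235 (SE 0.27, adjusted p = 0.00084). Aldh1a1 had a log2 change of -0.17 and was not called.

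Lysosomal genes had the highest share of rises among the metabolic lists. Of 45 measured 22 rose and 0 fell (48.9%), against 10.9% and 4.19% of all genes, and 41 of the 45 had a fitted change above 0. The count was 15 to 19 when 1 array was left out, lowest without E12 replicate 4, and the median log2 change was 0.69, or 0.64 within lot 1 and 0.65 within lot 2. The mean log2 level of the list was 8.22, 8.28 and 8.26 on the E9.5 arrays and 9.10, 9.02 and 9.09 on the E12 arrays, so that all 3 E12 arrays were alike and higher.

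The members that rose were of several kinds. Lgmn, an asparaginyl endopeptidase, read 137, 140.3 and 189 at E9.5 and 1047, 819 and 548 at E12 (5.06-fold, SE 0.26, adjusted p = 1.3e-05). Grn, progranulin, read 90.6, 86.8 and 117 at E9.5 and 337, 341 and 324 at E12 (3.43-fold, SE 0.33, adjusted p = 0.0012). The E12 arrays of Grn were nearly equal, while those of Lgmn stood in the order of the macrophage protease Ctss, and the part of macrophages was not tested. Scarb2, a lysosomal membrane receptor, rose 3.23-fold from 254, 244 and 232 to 757, 822 and 777 (SE 0.24, adjusted p = 0.00011). Tpp1, a tripeptidyl peptidase, rose 2.67-fold from 484, 464 and 479 to 1294, 1144 and 1390 (SE 0.27, adjusted p = 0.0015), and Npc1, the cholesterol exporter, 2.94-fold (SE 0.33, adjusted p = 0.0041). The broad cathepsins Ctsb and Ctsl rose 2.12-fold and 2.11-fold (SE 0.22 and 0.21, adjusted p = 0.0025 and 0.0017). Lamp1 and Ctsd had log2 changes of 0.56 and 0.64 and were not called (adjusted p = 0.066 and 0.17).

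Several enzymes that break down glycolipids rose. Gm2a, the activator of ganglioside breakdown, read 66.8, 108 and 104 at E9.5 and 1033, 854 and 614 at E12 (at least 8.91-fold, SE 0.47, adjusted p = 0.0002). Glb1, beta-galactosidase, rose 3.79-fold from 90.4, 84.7 and 110.0 to 386, 359 and 331 (SE 0.28, adjusted p = 0.00014). The E12 arrays of Gm2a and Glb1 also stood in the order of Ctss, as did those of Axl and Sat1. The part of macrophages was not tested. Hexa, a hexosaminidase subunit, rose 3.04-fold (SE 0.33, adjusted p = 0.0031), and Smpd1, acid sphingomyelinase, 2.49-fold from 231 ± 49.6 to 566 ± 6.48 (SE 0.26, adjusted p = 0.0021). In the list of sphingolipid, ganglioside and phospholipid enzymes 12 of 44 rose and 2 fell (27.3% and 4.5%), against 10.9% and 4.19% of all genes.

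Lysosomal genes are known targets of TFEB, which binds a site with the letters CACGTG, so these letters were searched on both strands of the same promoters. They were in 10.2% of all promoters with a sequence and in 13 of 38 of the lysosome list (34.2%). Among its members that rose the count was 4 of 19 (21.1%), and among the others 9 of 19 (47.4%). CACGTG contains ACGTG, so each such promoter also holds the shorter motif. The 80 bases around the match are shown for genes that rose, at chr12:102439102-102439181 on the minus strand for Lgmn, chr9:114400990-114401069 on the plus strand for Glb1 and chr2:164833693-164833772 on the plus strand for Ctsa, with CACGTG in capitals.
Lgmn: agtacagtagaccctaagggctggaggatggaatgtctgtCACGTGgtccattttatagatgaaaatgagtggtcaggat
Glb1: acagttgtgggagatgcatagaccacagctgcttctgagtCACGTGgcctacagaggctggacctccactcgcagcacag
Ctsa: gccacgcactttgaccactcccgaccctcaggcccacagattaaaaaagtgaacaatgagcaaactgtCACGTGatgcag
Ctsa, a carboxypeptidase that protects Glb1 in the lysosome, rose 3.38-fold from 119, 119.8 and 174 to 461, 486 and 429 (SE 0.33, adjusted p = 0.0016).

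**Figure D4:**
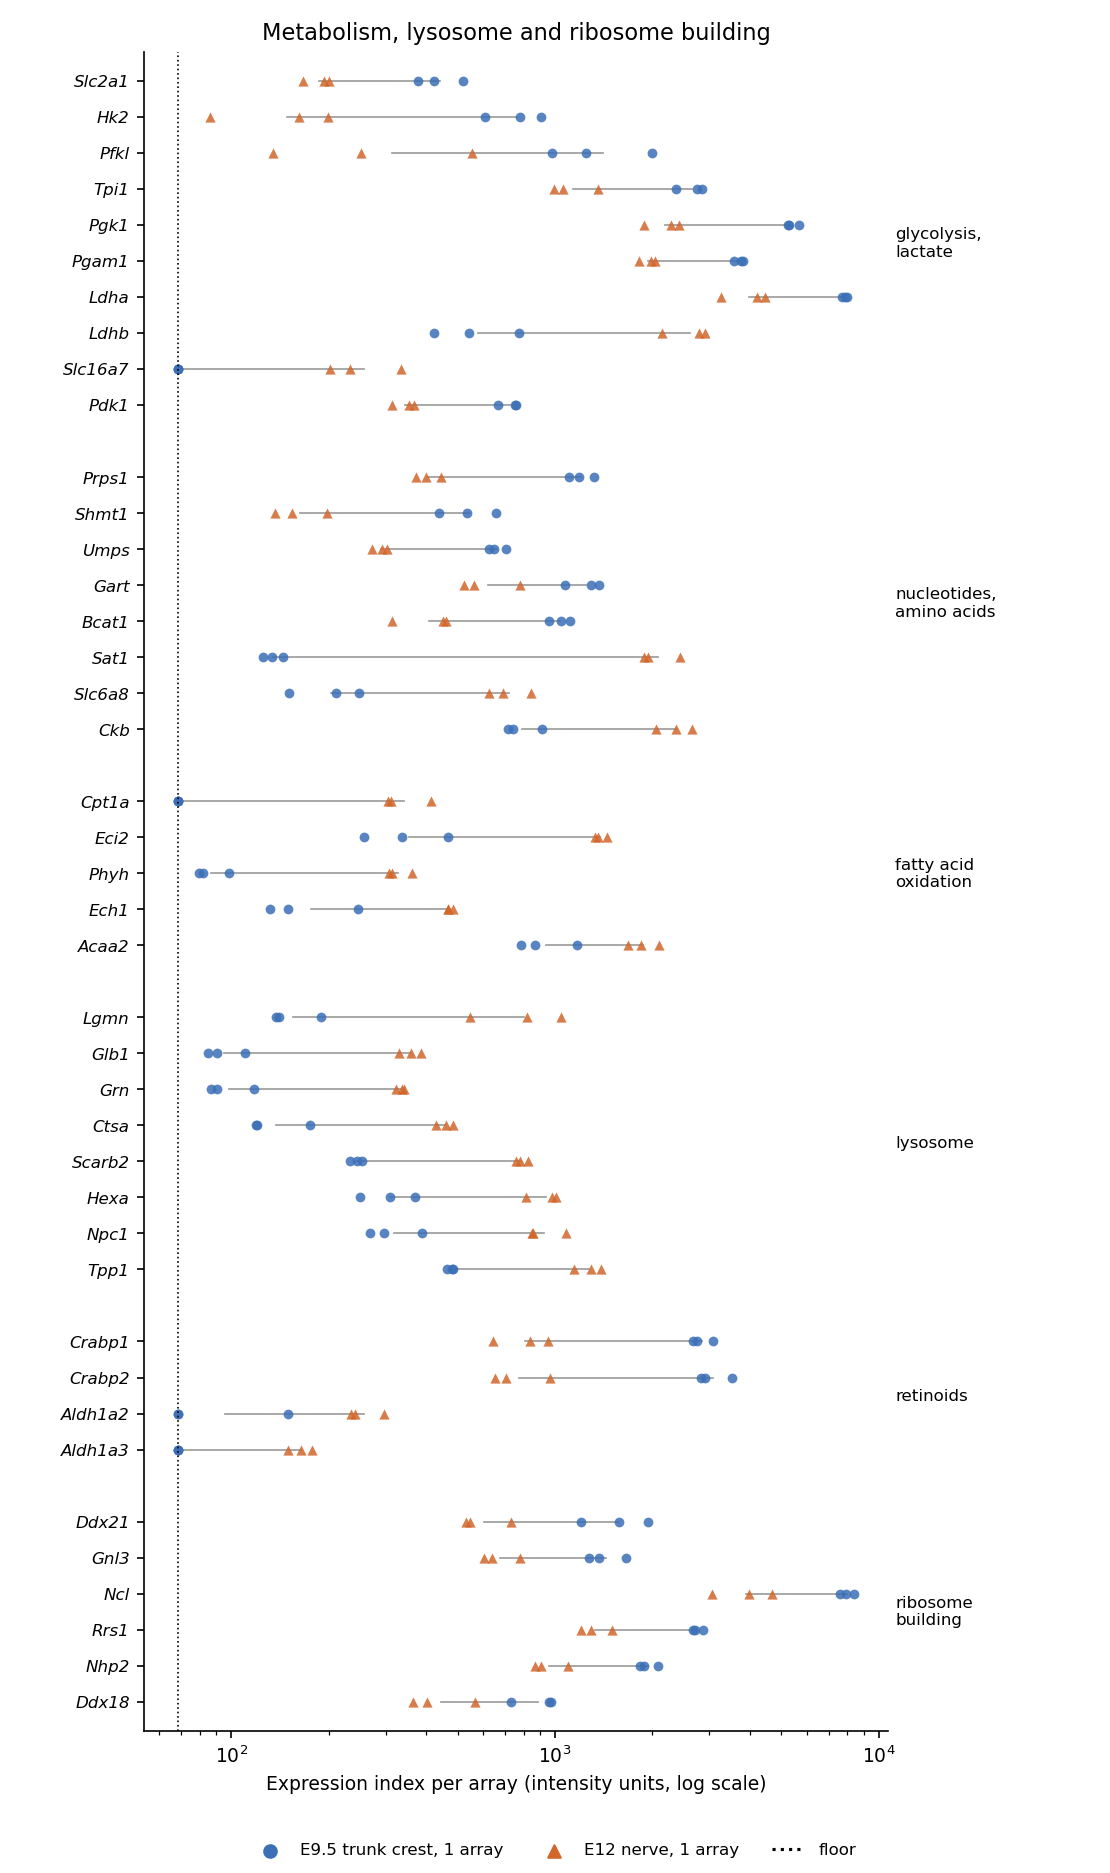
Expression index per array, in intensity units on a log scale, of genes of glycolysis and lactate, nucleotides and amino acids, fatty acid oxidation, the lysosome, retinoids and ribosome building, with E9.5 arrays as blue circles, E12 arrays as orange triangles, a grey line between the stage means and the floor as a dotted line. Lysosomal genes lie higher at E12 and ribosome building genes lower, and Ldha and Ldhb move in opposite directions.

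Genes of ribosome building and of the ribosome itself differed in their calls. Of 29 genes of the nucleolus and ribosome biogenesis 14 fell and 0 rose (48.3% down), against 4.19% and 10.9% of all genes. Of the 29, 28 had a fitted change below 0. The median log2 change was -0.61, or -0.66 within lot 1 and -0.44 within lot 2. How many were called depended on single arrays, with 6 falls without E9.5 replicate 3, 7 without E12 replicate 1, 8 without E12 replicate 2 or 4 and 9 without E9.5 replicate 2, and 6 with the GAPDH covariate. Of 28 cytoplasmic ribosomal proteins, 0 were called by limma in either direction, with a median of 0.08. Among these, Rplp0 read 7541, 8058 and 9727 at E9.5 and 8467, 8904 and 9125 at E12, with overlap (log2 change 0.07, adjusted p = 0.88).

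Ncl, Npm1 and Fbl, genes of the nucleolus that were called, lost their calls without E12 replicate 1 (adjusted p = 0.087, 0.17 and 0.19 by limma). They also lost them with the GAPDH covariate (0.067, 0.14 and 0.18). The list members described next were picked because they kept their calls without any 1 array. Ddx21, an RNA helicase of the nucleolus, read 1207, 1938 and 1576 at E9.5 and 530.1, 545 and 731 at E12 (2.59-fold lower, SE 0.31, adjusted p = 0.0058). Gnl3, nucleostemin, fell 2.13-fold from 1274, 1659 and 1367 to 640, 780 and 602 (SE 0.19, adjusted p = 0.00083). Rrs1, a ribosome assembly factor, fell 2.07-fold from 2710, 2871 and 2672 to 1496, 1292 and 1206 (SE 0.19, adjusted p = 0.00098). Genes of the same process outside the list are named because their falls were large. Grwd1, a chaperone of a ribosomal protein, fell at least 4.71-fold from 314, 460 and 433 to 63.2, 84.2 and 103 (SE 0.29, adjusted p = 4.8e-05). Rrp1b fell 4.10-fold (SE 0.26, adjusted p = 4.5e-05). Wdr74 and Wdr43, of the same process, were picked after their values were seen and fell at least 3.65-fold (SE 0.31, adjusted p = 0.00055) and 3.45-fold (SE 0.34, adjusted p = 0.0017).

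Of 76 genes of DNA replication and the cell cycle 19 fell and 0 rose, against 4.19% of all genes that fell, and 65 had a fitted change below 0. Leaving out E9.5 replicate 2 lowered the falls to 9, leaving out E12 replicate 1 to 11 and leaving out E12 replicate 2 to 12, while quantile normalization gave 29 and array weights 39. Cdca7, a target of MYC and E2F, fell 4.36-fold from 1539, 1557 and 1317 to 332, 287 and 399.9 (SE 0.28, adjusted p = 6.9e-05). Ttk, a kinase of the spindle checkpoint, fell 2.93-fold from 887, 838 and 711 to 266, 256 and 309.9 (SE 0.33, adjusted p = 0.004), and Prim1, the primase, from 189.6 ± 37.5 to the floor (at least 2.73-fold, SE 0.23, adjusted p = 0.00029). Cdkn1c, the CDK inhibitor p57, read 1938, 2108 and 2487 at E9.5 and 6122, 7534 and 7506 at E12 (3.24-fold, SE 0.30, adjusted p = 0.00085). Btg1 and Ccng2, which restrain proliferation, rose 3.48-fold and 3.49-fold (SE 0.22 and 0.29, adjusted p = 2.4e-05 and 0.00037). In that list of D cyclins, CDK inhibitors and RB genes 6 of 26 rose, 2 fell and 18 were not called. The rises were 23.1% and the falls 7.69%, against 10.9% and 4.19% of all genes.

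Stress response genes were higher at E12 and uneven between its arrays. Of 47 immediate early and stress response genes 21 rose and 0 fell (44.7% up), against 10.9% and 4.19% of all genes. The median log2 change was 1.27, or 1.79 within lot 1 and 1.09 within lot 2. The mean log2 level of the list was 8.15, 8.15 and 7.97 on the E9.5 arrays and 9.98, 9.16 and 9.06 on the E12 arrays, highest on E12 replicate 1. Without that array 14 rose, and in a fit of the 6 arrays alone 13. Cells were sorted at both stages, and the part of handling was not tested. Ppp1r15a, a stress-induced phosphatase subunit, read 74.6, 49.8 and 73.5 at E9.5 and 519, 473 and 376 at E12 (at least 6.26-fold, SE 0.52, adjusted p = 0.002). Sqstm1, the autophagy receptor p62, which Nfe2l2 is known to induce, rose at least 10.8-fold from 105, 59.7 and 60.6 to 1066, 997 and 586 (SE 0.51, adjusted p = 0.00018). Several of the Kruppel-like, bZIP and nuclear receptor genes above belong to this response.

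The later course differed between genes that had risen. Of the 86 gained probe sets, 79 were above the floor on all E14 arrays and 58 on all P0 arrays, where 11 were back at the floor on every array. Ahr had means of 2185, 1762, 1543 and 826 at E14, E16, E18 and P0, and Sat1 went on to 2454, 3609, 4529 and 4543. Scrg1 and Cadps, a factor of vesicle release that had risen at least 11.6-fold to 862, 898 and 1018, were high at E12 and E14 alone. Scrg1 stood at 220, 11.9, 0 and 17.3 over the same stages, and Cadps at 623.5, 61.5, 38.4 and 44.6, where 2 of its 4 E16 arrays were at the floor. Of the 17 lost probe sets, 10 were at the floor on all P0 arrays and 2 above it on all of them. Those 2 were Ptn, with means of 511, 514, 384 and 212 from E14 to P0, and Galr2, which was chosen after its values were seen and reached 283.5 at P0. Crabp1, which had fallen, stood at 2329 at E14 and 155.5 at P0. These later levels are a description and were not tested.

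**Figure D5:**
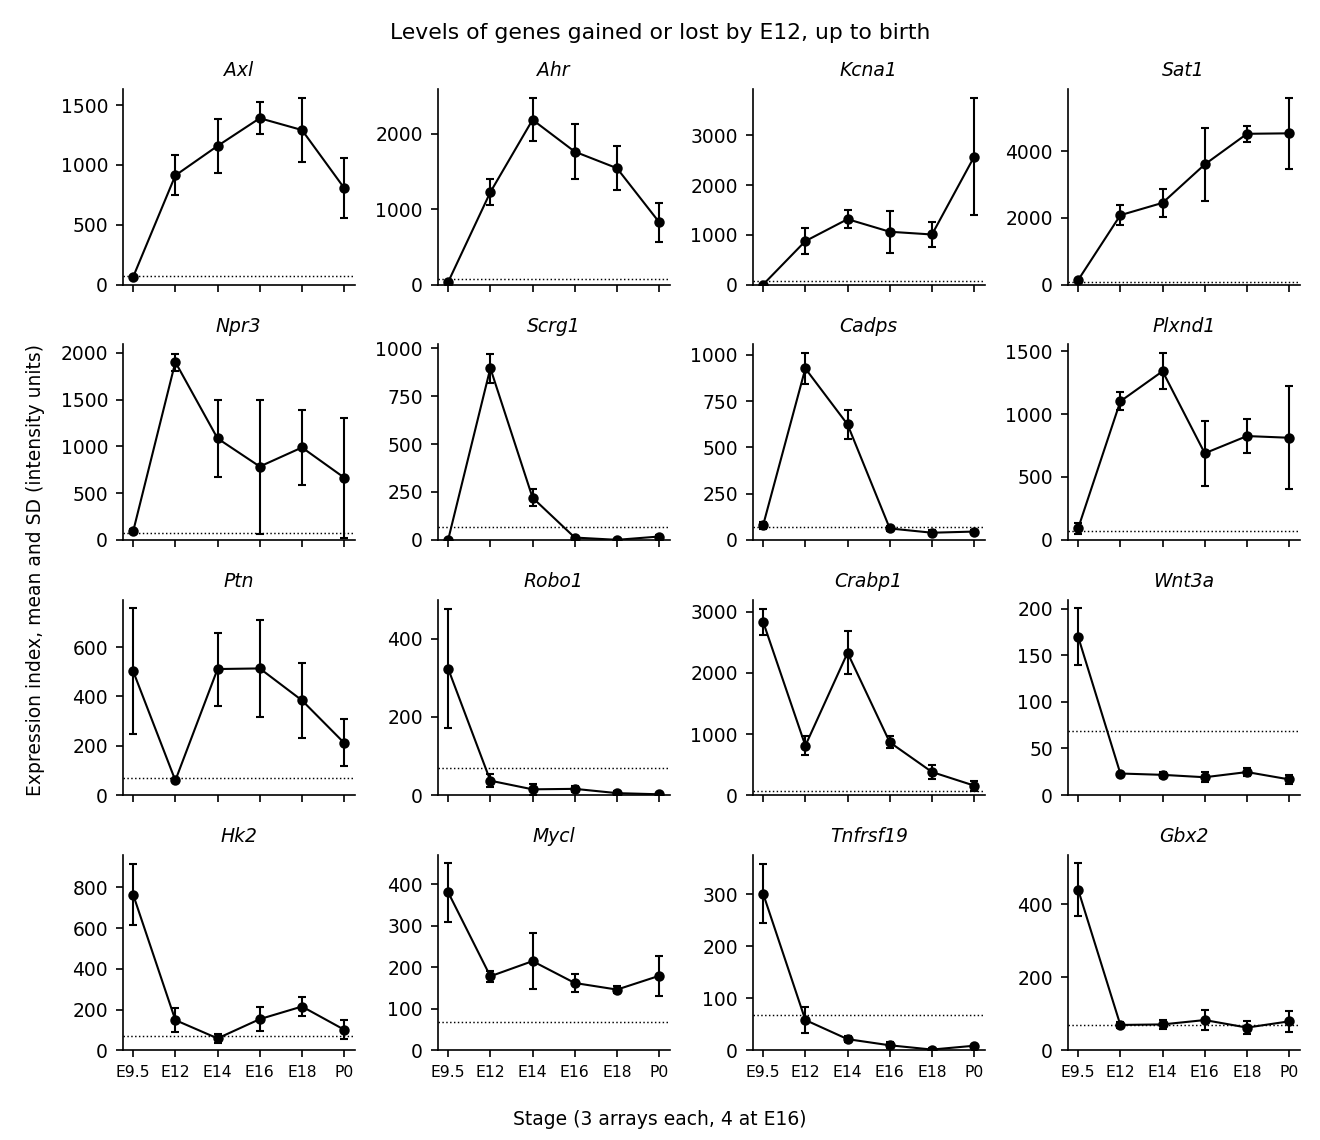
Mean expression index and SD, in intensity units, of 16 genes at E9.5, E12, E14, E16, E18 and P0 (3 arrays each, 4 at E16), with the floor as a dotted line. Ahr, Axl, Kcna1 and Sat1 stayed up after E12, the means of Scrg1 and Cadps were under the floor from E16 on, and Robo1, Wnt3a and Tnfrsf19 stayed at or under it.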

How the data were processed

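Green fluorescent cells sorted from mouse embryos were hybridized to Affymetrix MG-U74Av2 arrays, 3 of E9.5 trunk and 3 of E12 sciatic nerve among 19. The deposited intensity values are, per the labels, model-based expression indices from dChip (version not given in the sources used here) after smoothing-spline normalization, with probe sensitivities from 18 arrays although the table holds 19. Of 12488 probe sets 66 controls were left out, 10833 had 1 gene symbol in the platform annotation, 396 several and 1193 none. Identifiers of 10817 matched RefSeq, giving 8251 genes. No pair of arrays was identical (0 pairs).

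Values were raised to a floor, the 25th percentile (68.5), and taken to log2. The 10414 probe sets above it on at least 3 arrays entered limma 3.58.1 in R 4.3.3 (lmFit and eBayes, 1 mean per stage over all 19 arrays, 13 residual degrees of freedom). Tests were 2-sided, with Benjamini-Hochberg adjustment over all probe sets at 0.05, and the procedure was tested on simulated data. A gene is its probe set of highest mean. Candidates for naming were the 30 largest rises and 30 largest falls without overlap, and family members that differ in call. Each list added up to 6 called members per direction, or the 2 of highest mean where none was called. Not all candidates are described in the text, some of the largest changes among those left out. Members and lists were chosen with earlier results of these data known. Alternatives changed the floor, filter, scaling, weights, samples and blocks. One gene of the reporter construct is not reported here.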

Additional observations from a re-analysis of the deposited data

How the results depend on the processing

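Array weights gave 3039 changed probe sets, 1862 higher and 1177 lower, against 1469, 1010 and 459, and a 2-fold minimum gave 933 changed and 241 lower. Median centring gave 726 lower and quantile normalization 756, and the median change of all probe sets was -0.04 and -0.05 under these, against 0.01. When 1 array was left out, 973 to 1282 changed, 715 to 886 were higher and 258 to 396 were lower. Stages share the replicate numbers 1 and 2, which equal the lot. With the replicate number as a block, 1498 probe sets changed (909 higher, 589 lower), and with the lot as a block 1551 (929 and 622). Whether equal numbers pair the samples was not settled. Deviations from the stage means correlated at 0.149 for replicate 1 and -0.106 for replicate 2. Between arrays of unlike number the range was -0.149 to 0.205, so these correlations cannot decide it. Genes considered for naming, not all of them described, had 267 probe sets that were called. Of these, 212 were called under each alternative fit and 222 without any 1 array, and 0 values turned direction. With 3 arrays per stage and cells sorted in bulk, the number of arrays limits the precision, and changes near the floor have only bounds.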

Other observations

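Genes of the nuclear lamina and the cell cortex were among the large rises. Lmna, which encodes lamins A and C, read 112, 44.2 and 77.7 at E9.5 and 1303, 1303 and 871 at E12, at least 13.5-fold higher (SE 0.42, adjusted p = 1.1e-05 by limma). The B-type lamins Lmnb1 and Lmnb2 had log2 changes of -1.11 and -0.38 and were not called (adjusted p = 0.15 and 0.16). Anxa2, a membrane-binding annexin, read 184, 27.7 and 33.4 at E9.5 and 1357, 1260 and 1379 at E12, a log2 rise of at least 3.81 (SE 0.38, adjusted p = 4e-06). Its partner S100a10 rose 8.35-fold from 82.6, 95.3 and 164 to 936, 1017 and 787 (SE 0.33, adjusted p = 9.5e-06). Myl9, a regulatory light chain of non-muscle and smooth muscle myosin, rose 8.76-fold from 194, 194 and 437 to 2250, 2844 and 1733 (SE 0.44, adjusted p = 0.00011), and it is also on the list of pericyte and smooth muscle markers, of which Acta2 lay at the floor on all 6 arrays. Krt8, a keratin of simple epithelia, rose 7.39-fold from 157, 91.5 and 106 to 702, 757 and 1152 (SE 0.39, adjusted p = 7.3e-05). In the list of annexins, S100 proteins and actin-binding proteins 18 of 78 rose and 2 fell, against 10.9% and 4.19% of all genes.

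Probe sets of one gene differed for Ror2, a Wnt receptor, as for Fgfr2. One Ror2 probe set read 354, 317 and 336 at E9.5 and 363, 407 and 318 at E12 and was not called (adjusted p = 0.77). The other read 185, 222 and 165 at E9.5 and lay at the floor on all 3 E12 arrays, at least 2.76-fold lower (adjusted p = 1.7e-07). This gene was chosen after its values were seen. Of 5528 tested genes on no list, 530 rose and 194 fell.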
